A study of Mus musculus with 4 samples.

Results

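Germline and meiosis genes are transcribed at high levels in the ovary and testis and at low levels in most other cells. In meiosis the replicated chromosomes are held together by a cohesin ring with germ cell subunits, paired along the synaptonemal complex, and joined by recombination. Germ cells also restrain transposons with small RNAs bound to PIWI proteins (piRNAs). In mouse embryonic stem cells (ESCs) many of these genes are held low by DNA methylation or by a repressor complex that contains MGA and E2F6, which bind E-box and E2F motifs. A list of 40 such genes was followed here by gene symbol, of which 38 were measured, among 14382 genes in all. Rad21l and Spo11 were not analysed here. The 38 were sorted by role into 3 genes of meiotic entry, 3 of cohesin, 7 of synapsis, 4 of recombination, 11 of transposon defence, 3 of primordial germ cells (the embryonic precursors of eggs and sperm) and 7 other germ cell proteins.

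The cells were mouse ESCs with the genotype Arid1a f/f:CreERT2 in both groups. In these cells the Arid1a alleles are flanked by loxP sites, and the recombinase CreERT2 becomes active on binding 4-hydroxytamoxifen (4-OHT). ARID1A belongs to BAF, a chromatin remodelling complex, and the comparison set control cells against cells after deletion of its gene. The control group received ethanol for 24 hours and the other group 1 µM 4-OHT for 24 hours. Cells were then passaged, and polyA RNA was taken at 72 hours, giving 2 libraries in each group. The culture held serum and leukemia inhibitory factor on irradiated embryonic fibroblast feeders, so that feeder RNA can be part of a library. Both groups here carry floxed alleles, so an effect of 4-OHT or of Cre itself cannot be told apart from that of the deletion. Levels are in CPM, in which reads are scaled by library size. The deposited values were means of each group, from which the reads of each library were recovered. Letters A and B tell the libraries of a group apart and carry no order.

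Arid1a itself had 517 and 502 CPM in the ethanol libraries and 241 and 213 CPM in the 4-OHT libraries, and it fell by 1.16 ± 0.07 (SE) on the log2(CPM + 1) scale (limma adjusted p = 7.3e-06). Recovered totals ran from 6188378 to 7012664 reads, and a gene with 0 reads in a library could still lie as high as 0.426 to 0.477 CPM (a limit of 3 reads). All 10 ESC markers were measured, with summed levels of 3989 and 3861 CPM in ethanol and 4051 and 4252 CPM with 4-OHT. Nanog, Tdgf1 and Fgf4 were the 3 of these 10 that rose, and Sox2 and Esrrb the 2 that fell (limma, adjusted p under 0.05). Their log2 fold changes were 0.36, 0.30, 0.71, -0.22 and -0.27 in that order. The shares of all genes tested were 5.24% higher and 4.22% lower. Of 18 fibroblast markers 13 were measured, with sums of 764 and 759 CPM in ethanol and 803 and 762 CPM with 4-OHT. Most of each sum was Vim, at 488 and 482 CPM in ethanol and 492 and 467 CPM with 4-OHT. Col1a2 and Thy1 were the 2 of these 13 that rose, and Dcn, Lum, Postn, Prrx1 and Fap were not analysed here. Of 14 markers of the 2-cell-like state 6 were measured, with sums of 310 and 296 CPM in ethanol and 261 and 305 CPM with 4-OHT. Most of each sum was Eif1a, with a mean of 291.3 CPM in ethanol and 261.7 CPM with 4-OHT. These sums therefore say little of the other markers. Zscan4d and Usp17la rose, with log2 fold changes of 0.92 and 0.83, and 4 of the 6, Eif1a among them, did not pass the limma test. The part of these other cells in the results was not tested. In such bulk RNA, more cells of a kind and more RNA per cell cannot be told apart. The labels name 2 library kits and do not say which library had which, so a kit difference cannot be told apart from the treatment. They do not say that replicates were separate cultures, so p-values measure only the spread between these libraries, which may be technical. The limma SE and p-value of a gene also draw on the spread of other genes at like levels.

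After 4-OHT, 11 of the 38 germline genes rose and 1 fell, with 26 not past the threshold (limma on log2(CPM + 1), adjusted p under 0.05). The 11 were Stra8, Smc1b, Nanos3, Meioc, Tuba3a, Stag3, Mael, Tex14, Tdrkh, Hormad1 and Tex19.1, and the gene that fell was Kit. Over all 14376 genes tested, 5.24% rose and 4.22% fell. The median log2 fold change of the 38 genes was 0.32, beside -0.0016 for all genes. Values above 0 were found for 32 of the 38 genes and for 49.5% of all genes. The 38 genes were chosen with earlier results of these data known, so part of such differences can come from the choice. Summed over the 38 genes, the level was 444 and 443 CPM in the ethanol libraries and 596 and 601 CPM in the 4-OHT libraries. Both libraries of the 4-OHT group lay above both ethanol libraries for 22 of the 38, against 26.4% of all genes, and below them for 5, against 25.7%. A count test on the recovered reads (edgeR) tested 32 of the 38, of which 13 rose and 1 fell, beside 8.12% and 7.63% of 12961 genes. It added Syce2 and Piwil2 to the 12 genes of limma. DESeq2 kept 9 of the 12, without Hormad1, Tdrkh and Tex14. With either 4-OHT library left out, limma called 0 of the 38 and 0 of all genes, while 16 of the 38 had an unadjusted p under 0.05 each time. The lowest adjusted p among the 38 was then 0.13 without library A and 0.14 without library B. With the same libraries left out, edgeR called 14 (without library A) and 13 (without library B).

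**Figure D1:**
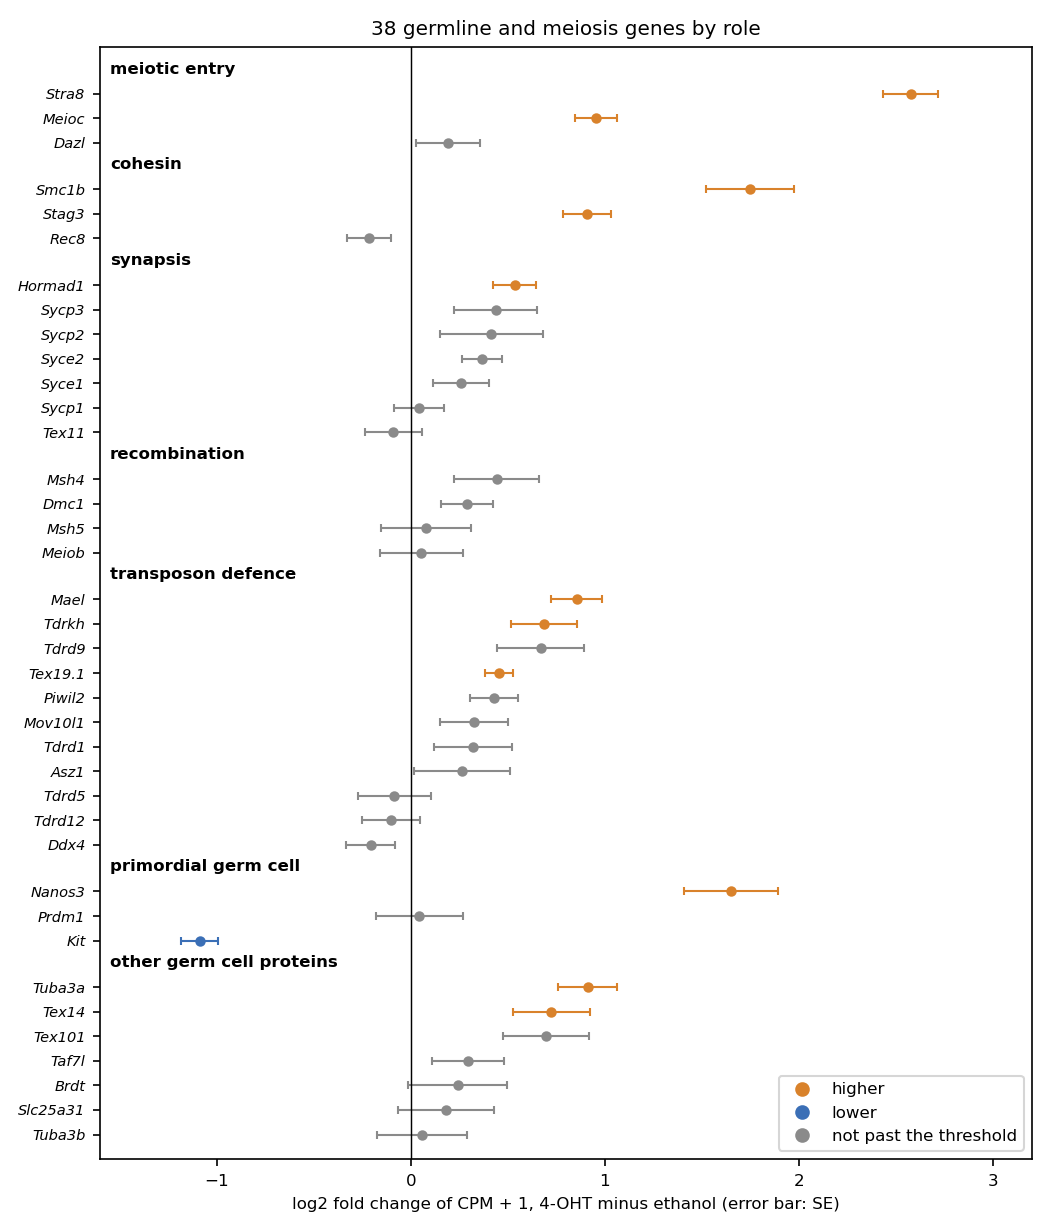
Log2 fold change of CPM + 1 (x axis, 4-OHT minus ethanol) of the 38 measured germline and meiosis genes, grouped by role. Points show the estimate and error bars its limma SE, which also draws on other genes, with 2 libraries per group. Stra8 lies farthest to the right at 2.58, Kit farthest to the left at -1.09, and 26 grey genes did not pass the threshold.

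The genes started from low levels. In ethanol 6 of the 38 were under 1 CPM, 14 lay between 1 and 10 CPM and 18 at 10 CPM or more, with a median of 8.05 CPM beside 26.0 CPM for all genes. None of the 6 genes under 1 CPM was called by limma, and the filter of edgeR left these 6 untested. The 1 CPM added before the log shrinks changes at such levels, so the lack of calls can reflect the tests. Each of the other classes held 6 called genes. Per kilobase of exon, which allows levels of different genes to be set side by side, Tex19.1 was the highest in both groups, at 28.6 CPM per kb in ethanol and 39.3 with 4-OHT. Stra8 stood at 4.40 CPM per kb in ethanol and at 28.9 with 4-OHT, the second highest of the 38 in that group. Smc1b stood at 0.288 CPM per kb in ethanol and at 1.52 with 4-OHT, so that it remained among the low genes of the list.

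**Figure D2:**
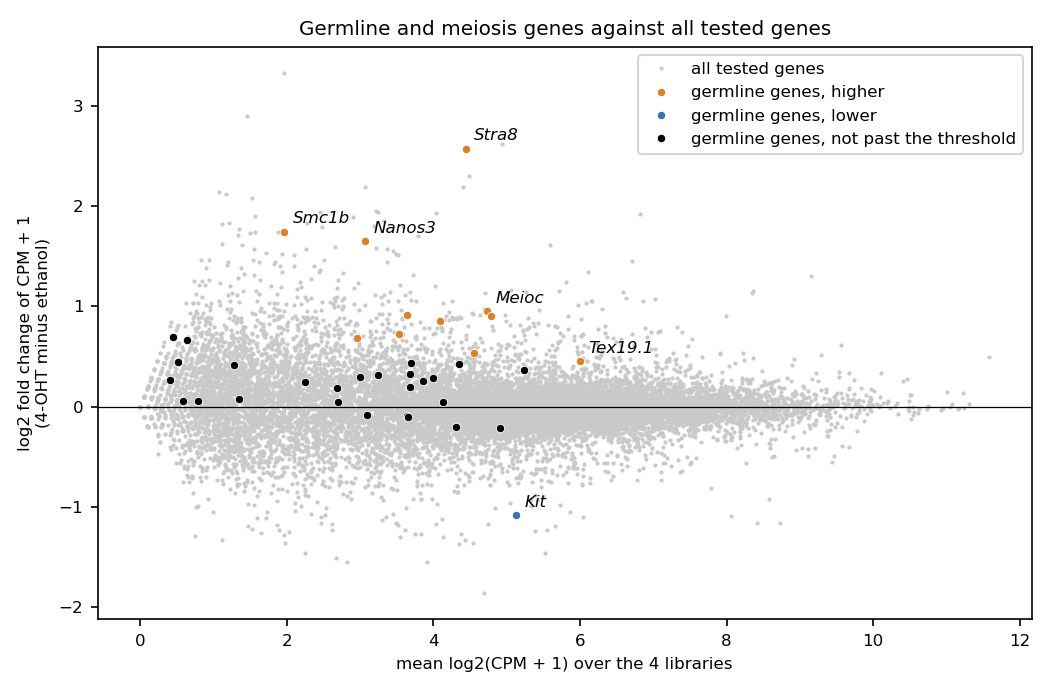
Log2 fold change of CPM + 1 (y axis, 4-OHT minus ethanol) against the mean log2(CPM + 1) of the 4 libraries (x axis) for all 14376 tested genes in grey and the 38 germline and meiosis genes in colour or black. Stra8, Smc1b and Nanos3 lie near the top of the cloud at their levels, and most black points, the genes not past the threshold, lie within it.

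The promoters of the 5 called genes with the largest change are shown because MGA with its partner MAX, E2F6 and retinoic acid receptors are known regulators of germline genes. Each window runs from 250 bases before the RefSeq start site to 50 bases from it (RefSeq, GRCm38.p6) and is written in the direction of the gene. Capitals mark matches on either strand to the E-box CACGTG, the E2F core TCCCGC, a longer E2F form GGCGGGA, whose reverse complement holds the core and so overlaps it, and the receptor half-site AGGTCA. The windows are chr6:34920698-34920997 on the plus strand for Stra8, chr15:85131908-85132207 on the minus strand for Smc1b, chr8:84176503-84176802 on the minus strand for Nanos3, chr5:75574737-75575036 on the plus strand for Kit, which has 2 listed starts of which the first was used, and chr11:102665335-102665634 on the plus strand for Meioc.
Stra8: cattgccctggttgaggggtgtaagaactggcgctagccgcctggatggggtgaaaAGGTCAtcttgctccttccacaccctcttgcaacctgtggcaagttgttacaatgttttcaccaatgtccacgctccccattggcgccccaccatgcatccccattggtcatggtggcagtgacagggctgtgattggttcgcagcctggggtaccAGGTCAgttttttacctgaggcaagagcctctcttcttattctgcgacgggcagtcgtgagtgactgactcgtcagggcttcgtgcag
Smc1b: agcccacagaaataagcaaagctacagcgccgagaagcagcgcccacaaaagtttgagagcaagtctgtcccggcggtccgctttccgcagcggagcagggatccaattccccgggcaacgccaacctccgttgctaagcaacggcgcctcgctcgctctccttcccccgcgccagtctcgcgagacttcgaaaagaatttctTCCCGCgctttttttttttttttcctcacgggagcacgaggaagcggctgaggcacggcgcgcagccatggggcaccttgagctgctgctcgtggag
Nanos3: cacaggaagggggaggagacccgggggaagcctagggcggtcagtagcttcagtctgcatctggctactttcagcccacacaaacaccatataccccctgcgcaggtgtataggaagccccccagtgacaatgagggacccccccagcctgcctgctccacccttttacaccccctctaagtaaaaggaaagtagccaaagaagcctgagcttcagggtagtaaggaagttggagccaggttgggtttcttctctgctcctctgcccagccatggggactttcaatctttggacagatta
Kit: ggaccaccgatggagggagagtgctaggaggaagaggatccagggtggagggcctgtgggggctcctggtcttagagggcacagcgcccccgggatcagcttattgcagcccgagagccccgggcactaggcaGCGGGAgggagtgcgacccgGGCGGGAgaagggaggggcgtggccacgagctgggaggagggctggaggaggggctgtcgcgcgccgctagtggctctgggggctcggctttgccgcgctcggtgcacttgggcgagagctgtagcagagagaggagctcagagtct
Meioc: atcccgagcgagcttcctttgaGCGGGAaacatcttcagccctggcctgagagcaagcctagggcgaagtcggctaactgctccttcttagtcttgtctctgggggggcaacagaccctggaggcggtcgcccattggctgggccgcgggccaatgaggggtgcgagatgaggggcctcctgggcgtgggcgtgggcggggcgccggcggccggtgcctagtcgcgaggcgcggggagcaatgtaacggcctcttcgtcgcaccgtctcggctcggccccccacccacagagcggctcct

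The Stra8 window held 10 CpG dinucleotides and 2 half-sites, which begin 194 and 38 bases before the start site. The Smc1b window held 29 CpGs and 1 E2F core 47 bases before the start. The Nanos3 window held 3 CpGs and no match to these letters. The Kit window held 20 CpGs and E2F cores 117 and 96 bases before the start, the nearer one inside the longer form. The Meioc window held 28 CpGs and 1 E2F core 228 bases before the start. A match describes letters only, and absence of one says nothing of binding.

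A promoter was matched for 35 of the 38 germline genes and for 11357 of the 14382 genes of the table. The E-box was in 12 of the 35 windows (34.3%), beside 10.2% of the table's promoters. It was in 3 of the 11 windows of genes that rose and in 9 of the 23 windows of genes not past the threshold. The E2F core was in 19 of the 35 (54.3%), beside 35.9% in the table, and in 8 of the 11 and 10 of the 23. The longer E2F form was in 9 of the 35 (25.7%), beside 21.1% in the table, and in 4 of the 11 and 4 of the 23. The half-site was in 5 of the 35 (14.3%), beside 12.2% in the table, and in 2 of the 11 and 3 of the 23. The median number of CpGs was 20 in the germline windows and 20 in the table, with 24 in the windows of genes that rose and 19 in those not past the threshold. Among the genes that rose the number of CpGs ran from 3, in Nanos3, to 30. No test was made of these shares.

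Of the genes of meiotic entry, Stra8 and Meioc rose and Dazl did not pass the test. Their summed level was 36.6 and 37.6 CPM in ethanol and 102 and 100.0 CPM with 4-OHT. Stra8 (ENSMUSG00000029848, chr6:34920163-34939344) encodes a protein induced by retinoic acid that switches germ cells into the meiotic programme. It had 6.97 and 8.89 CPM in the ethanol libraries and 55.4 and 48.6 CPM in the 4-OHT libraries. The 4-OHT libraries lay far above the ethanol libraries, from 102 reads to 696 over each group. The means were 7.93 ± 1.36 and 52.0 ± 4.81 CPM (SD, n = 2), a ratio of 6.56, and the log2 fold change was 2.58 ± 0.14 (SE, limma adjusted p = 6.0e-06). This was the largest change among the 38 genes on the log2(CPM + 1) scale. Its RefSeq start lies inside the span that Gencode gives the gene.

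Meioc (ENSMUSG00000051455, chr11:102663716-102682237) encodes the partner of the RNA helicase YTHDC2, with which it maintains meiotic prophase. It had 17.5 and 18.7 CPM in ethanol and 34.8 and 37.4 CPM with 4-OHT. Both 4-OHT libraries were far above both ethanol libraries. The ratio of means was 1.99 and the log2 fold change 0.96 ± 0.11 (SE, limma adjusted p = 0.00054). As for Stra8, the RefSeq start used for the Meioc promoter lies inside the Gencode span. Dazl, an RNA-binding protein that licenses germ cells for meiosis, had 12.1 and 10.0 CPM in ethanol and 11.5 and 14.0 CPM with 4-OHT. The groups overlapped, and its log2 fold change was 0.19 ± 0.17 (SE, limma adjusted p = 0.54).

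Of the cohesin genes, Smc1b and Stag3 rose and Rec8 did not pass the test. Their summed level was 53.6 and 50.2 CPM in ethanol and 74.2 and 66.0 CPM with 4-OHT. Meiotic cohesin replaces subunits of the mitotic ring, SMC1B standing in for SMC1A, STAG3 for STAG1 or STAG2, and REC8 for RAD21. Smc1b (ENSMUSG00000022432, chr15:85064689-85131964) had 1.55 and 0.780 CPM in ethanol and 6.11 and 6.20 CPM with 4-OHT. The ethanol libraries together held 15 reads and the 4-OHT libraries 82, and neither 4-OHT library came near the ethanol level. The ratio of mean CPM was 5.28, with a 95% counting interval of 3.02 to 9.85 (Clopper-Pearson, counting error only), and the log2 fold change was 1.75 ± 0.23 (SE, limma adjusted p = 0.0011). With 0.1 CPM added in place of 1 CPM the log2 fold change was 2.38, and by edgeR it was 2.38 with both ethanol libraries, 2.95 without ethanol library A and 1.98 without ethanol library B.

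Stag3 (ENSMUSG00000036928, chr5:138280240-138312393) had 17.8 and 20.6 CPM in ethanol and 40.2 and 33.7 CPM with 4-OHT. Its 4-OHT libraries were both well above its ethanol libraries. The ratio of means was 1.92 and the log2 fold change 0.91 ± 0.12 (SE, limma adjusted p = 0.0015). Rec8 had 34.3 and 28.9 CPM in ethanol and 27.9 and 26.1 CPM with 4-OHT. Its 4-OHT libraries lay just below both ethanol libraries, with a log2 fold change of -0.22 ± 0.11 (SE, limma adjusted p = 0.29). Rec8 was the most abundant of the 3 per kilobase in both groups, at 10.8 CPM per kb in ethanol and 9.19 with 4-OHT. The 9 cohesin genes of mitotic cells were Smc1a, Smc3, Rad21, Stag1, Stag2 and the loading and release factors Nipbl, Wapl, Pds5a and Pds5b. Of these 9, 0 passed the limma test, beside 5.24% of all genes higher and 4.22% lower. An unadjusted limma p under 0.05 was found for 3 of the 9, beside 3441 of the 14376 genes tested. EdgeR called Pds5a higher (adjusted p = 0.039), beside 8.12% of the genes it tested. The median log2 fold change of the 9 was 0.05.

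**Figure D3:**
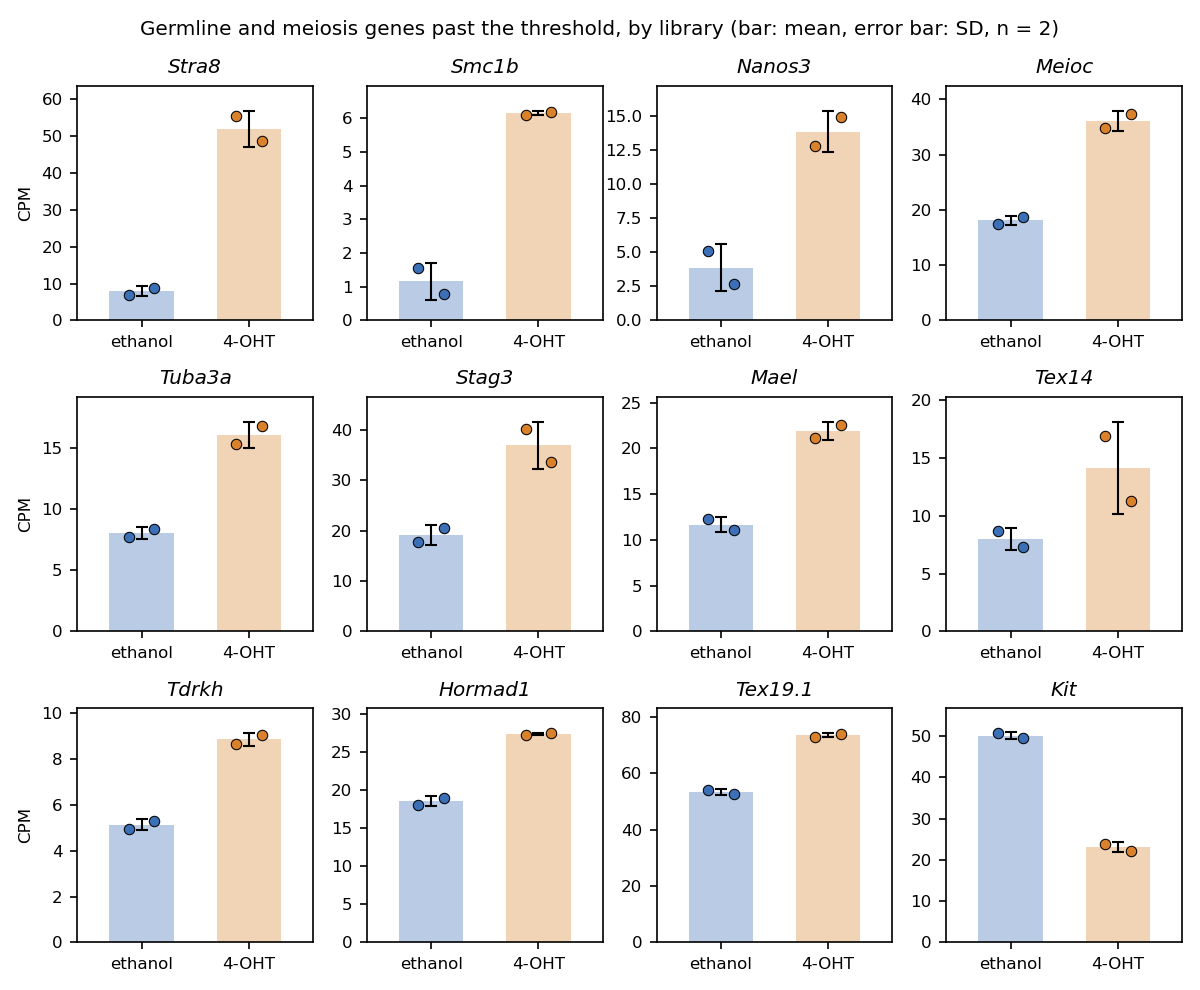
Level in CPM (y axis, each panel on its own scale from 0) of the 12 germline and meiosis genes past the threshold, with 1 point per library, bars for the mean and error bars for the SD of 2 libraries per group. In each panel the 2 groups do not overlap, and Kit is the only panel in which the 4-OHT libraries are the lower ones.

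Of the 7 synapsis genes, Hormad1 rose and the other 6 did not pass the limma test. Their summed level was 98.6 and 106 CPM in ethanol and 121 and 135 CPM with 4-OHT. Hormad1 (ENSMUSG00000028109, chr3:95559677-95587671) encodes a HORMA-domain protein of unpaired chromosome axes. It had 18.1 and 19.0 CPM in ethanol and 27.3 and 27.5 CPM with 4-OHT. The groups were well apart and each pair of libraries was close. The log2 fold change was 0.54 ± 0.11 (SE, limma adjusted p = 0.014), and DESeq2 gave an adjusted p of 0.11. Of its 50-base exon windows 22.9% also occur in other genes, mostly the gene Gm15529, so its reads may be split or shared.

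Syce2, a central element protein of the synaptonemal complex, had 31.3 and 33.1 CPM in ethanol and 38.5 and 45.3 CPM with 4-OHT. The groups did not overlap, but the 4-OHT libraries differed more from each other than the ethanol libraries did. Its log2 fold change was 0.37 ± 0.10 (SE), with an adjusted p of 0.055 by limma and 0.0091 by edgeR. Sycp3, a lateral element protein, had 8.52 and 11.9 CPM in ethanol and 11.4 and 17.2 CPM with 4-OHT, with groups that overlapped (limma adjusted p = 0.25). It shares 660 exon bases with Chpt1 on the opposite strand, and use of strand in the counting is not given in the sources used here. Sycp2, its partner in the lateral element, had 15 reads in ethanol and 24 with 4-OHT, a ratio of 1.54 (95% counting interval 0.778 to 3.17). That interval includes no change. Sycp1, the transverse filament that spans the complex, stood at 16.4 and 16.1 CPM in ethanol and 16.1 and 17.5 CPM with 4-OHT. The log2 fold change of Sycp1 was 0.04, that of Syce1, another central element protein, was 0.26, and that of Tex11, an X-linked protein of crossover sites, was -0.09.

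Of the recombination genes 0 of 4 passed the limma test, beside 5.24% and 4.22% of all genes. An unadjusted limma p under 0.05 was found for 0 of the 4, beside 3441 of the 14376 genes tested. The edgeR test covered 2 of the 4 and called 0. Dmc1, the meiotic recombinase that pairs a broken strand with the homologous chromosome, had 12.9 and 14.0 CPM in ethanol and 16.9 and 16.4 CPM with 4-OHT. Its groups did not overlap, and its log2 fold change was 0.29 ± 0.13 (SE, limma adjusted p = 0.23). The other 3 had low read numbers. Msh4, which with MSH5 stabilises crossover intermediates, had 3 reads in ethanol and 9 with 4-OHT, a ratio of 2.89 (95% counting interval 0.723 to 16.6). Msh5 had 19 reads and 22 reads (0.577 to 2.18). Meiob, a single-strand DNA-binding protein, had 6 reads and 7 reads (0.324 to 4.06). The intervals of all 3 include no change, and those of Msh4 and Meiob, with under 10 reads in each group, are wide.

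Of the 11 transposon defence genes, Mael, Tdrkh and Tex19.1 rose, 0 fell and 8 did not pass the limma test. The summed level was 148 and 143 CPM in ethanol and 186 and 188 CPM with 4-OHT. Mael (ENSMUSG00000040629, chr1:166201201-166238747) encodes maelstrom, a component of the germ cell granules where piRNAs are handled. It had 12.2 and 11.1 CPM in ethanol and 21.2 and 22.6 CPM with 4-OHT. Mael was thus higher in both 4-OHT libraries than in either ethanol library. The ratio of means was 1.88 and the log2 fold change 0.85 ± 0.13 (SE, limma adjusted p = 0.0031).

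Tex19.1 (ENSMUSG00000039329, chr11:121146143-121148319) encodes a protein that limits retrotransposons in germ cells, ESCs and the placenta. It had 54.2 and 52.7 CPM in ethanol and 73.1 and 74.1 CPM with 4-OHT. It was the most abundant of the 38 in both groups and its libraries were close within each group. The log2 fold change was 0.45 ± 0.07 (SE, limma adjusted p = 0.0036), the smallest among the called genes. Only 2.67% of its 50-base exon windows occur elsewhere, in its copy Tex19.2. Tdrkh (ENSMUSG00000041912, chr3:94413273-94434668) encodes a mitochondrial Tudor protein for trimming of piRNA ends. It had 4.96 and 5.30 CPM in ethanol and 8.67 and 9.06 CPM with 4-OHT. The groups did not overlap, and the log2 fold change was 0.69 ± 0.17 (SE, limma adjusted p = 0.033). Without ethanol library A the adjusted p was 0.10 by limma and 0.070 by edgeR, without ethanol library B it was 0.063 by limma, and DESeq2 gave 0.31. It shares 2255 exon bases with Oaz3 on the opposite strand, and reads of the 2 genes cannot be told apart without strand.

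Piwil2, the PIWI protein MILI that binds piRNAs, had 16.7 and 16.2 CPM in ethanol and 21.5 and 23.7 CPM with 4-OHT. The groups did not overlap, and the log2 fold change was 0.43 ± 0.12 (SE), with an adjusted p of 0.057 by limma and 0.015 by edgeR. Tdrd9, an RNA helicase of the PIWI pathway, had 3 reads in ethanol and 13 with 4-OHT, a ratio of 4.14 (95% counting interval 1.15 to 22.9) and a limma adjusted p of 0.096. Asz1, a mitochondrial protein of the same pathway, had 3 and 6 reads (0.412 to 11.9). Mov10l1, the helicase that feeds piRNA precursors, had 10.5 and 10.3 CPM in ethanol and 15.6 and 11.3 CPM with 4-OHT (limma adjusted p = 0.30). The Tudor proteins Tdrd1, Tdrd5 and Tdrd12 had log2 fold changes of 0.32, -0.08 and -0.10. Ddx4, the germ cell helicase also called VASA, had 21.4 and 19.3 CPM in ethanol and 18.3 and 16.7 CPM with 4-OHT. Its 4-OHT libraries were the lower ones, with a log2 fold change of -0.21 ± 0.13 (SE, limma adjusted p = 0.37).

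Of the 3 primordial germ cell genes Nanos3 rose, Kit fell and Prdm1 did not pass the test. Their summed level, most of it from Kit, was 60.4 and 58.3 CPM in ethanol and 41.2 and 44.0 CPM with 4-OHT. Nanos3 (ENSMUSG00000056155, chr8:84173731-84185217), an RNA-binding protein needed to keep primordial germ cells alive, had 5.11 and 2.65 CPM in ethanol and 12.8 and 14.9 CPM with 4-OHT. Both 4-OHT libraries were well above the ethanol libraries, which differed from each other. The means were 3.88 ± 1.74 and 13.9 ± 1.52 CPM (SD, n = 2), a ratio of 3.57, and the log2 fold change was 1.65 ± 0.24 (SE, limma adjusted p = 0.0021). In limma it was 2.02 without ethanol library A and 1.28 without ethanol library B, past the threshold in both. The RefSeq start used for its promoter lies inside the Gencode span.

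Kit (ENSMUSG00000005672, chr5:75574916-75656722) encodes the receptor for stem cell factor, which primordial germ cells and many other cells use. It had 50.7 and 49.5 CPM in ethanol and 23.9 and 22.3 CPM with 4-OHT. The groups were far apart. Kit fell by 1.09 ± 0.09 (SE) on the log2 scale (limma adjusted p = 0.00013). Prdm1, the repressor BLIMP1 that specifies primordial germ cells, had 4.65 and 6.24 CPM in ethanol and 4.55 and 6.83 CPM with 4-OHT, and its groups overlapped. Nanos3 and Kit, both past the threshold, thus went in opposite directions.

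Of the 7 other germ cell proteins, Tuba3a and Tex14 rose and 5 did not pass the test. Tuba3a (ENSMUSG00000067702, chr6:125278274-125286042), an alpha-tubulin of the testis, had 7.75 and 8.42 CPM in ethanol and 15.4 and 16.8 CPM with 4-OHT. Both 4-OHT libraries lay above, with a log2 fold change of 0.91 ± 0.15 (SE, limma adjusted p = 0.0042). Its near copy Tuba3b had 9 reads in ethanol and 10 with 4-OHT (95% counting interval of the ratio 0.392 to 2.98). Since 33.6% of the 50-base exon windows of Tuba3a occur in other genes, mostly Tuba3b, the division of reads between them is uncertain.

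Tex14 (ENSMUSG00000010342, chr11:87405065-87555823), needed for the bridges that join dividing germ cells, had 8.68 and 7.33 CPM in ethanol and 16.9 and 11.3 CPM with 4-OHT. The groups did not overlap, but 4-OHT library A was well above library B. The log2 fold change was 0.72 ± 0.20 (SE, limma adjusted p = 0.048). Without 4-OHT library A it was 0.45, with an edgeR adjusted p of 0.17, and without ethanol library B the limma adjusted p was 0.12. Tex101, a surface protein of germ cells, had 1 read in ethanol and 10 with 4-OHT, a ratio of 9.60 (95% counting interval 1.37 to 419) and a limma adjusted p of 0.084. The interval is wide because 1 read is its base. Taf7l (X-linked), Brdt and Slc25a31, which are germ cell forms of a TFIID subunit, a bromodomain protein and an ADP/ATP carrier, had log2 fold changes of 0.30, 0.24 and 0.18.

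Related lists with other genes were compared by their counts, beside 5.24% of all genes higher and 4.22% lower in limma. Of 25 other meiosis genes measured, 2 rose, 1 fell and 22 did not pass, with a median log2 fold change of 0.04. Zcwpw1, a histone reader active at recombination sites, rose by 0.86 from 11.2 and 14.7 CPM to 21.3 and 27.2 CPM (limma adjusted p = 0.0091). Hsf2bp, which acts with BRCA2 in meiotic recombination, rose by 0.51 from 30.7 and 27.6 CPM to 45.6 and 38.6 CPM (limma adjusted p = 0.016). Tex15, which acts in transposon silencing, fell by 0.55 from 17.4 and 15.9 CPM to 10.5 and 11.6 CPM (limma adjusted p = 0.039). The wider meiotic list thus held genes in both directions, and its median was near that of all genes.

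Of 15 other piRNA pathway genes 3 rose and 0 fell, with a median log2 fold change of 0.07. Morc1, a silencer of transposons in germ cells, rose by 0.64 from 40.6 and 40.2 CPM to 62.4 and 64.8 CPM (limma adjusted p = 0.0008). Dnmt3l, the cofactor of de novo DNA methylation, rose by 0.48 from 413 and 401 CPM to 582 and 554 CPM (limma adjusted p = 0.00051). Gpat2, a mitochondrial protein of piRNA production, rose by 0.75 from 6.20 and 7.33 CPM to 11.5 and 12.6 CPM (limma adjusted p = 0.019). Of 25 other germ cell genes 2 rose and 1 fell. Dppa3, a protein of germ cells and early embryos also called Stella, rose by 1.57 from 4.96 and 4.99 CPM to 14.9 and 18.8 CPM (limma adjusted p = 0.00044). Rpl39l, a ribosomal protein form of the testis, rose by 0.93 and Cpeb1, a regulator of polyadenylation, fell by 0.47. Of 13 DNA repair partners used in meiosis Brca2 alone passed, with a log2 fold change of 0.32 (limma adjusted p = 0.027). EdgeR called 4 of the 13 higher, beside 8.12% of all genes it tested.

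Of 27 genes listed as repressors of germline genes 5 rose and 0 fell, with a median log2 fold change of 0.04. The 4 largest changes were those of Dnmt3a, Dnmt3l (as above), Tet1 and Tet2. Dnmt3a, a de novo DNA methyltransferase, rose by 1.15 from 228 and 210 CPM to 489 and 486 CPM (limma adjusted p = 3.9e-06). Tet1 rose by 0.44 and Tet2 by 0.33. Tet1 and Tet2 encode enzymes that oxidise methylcytosine, so the count of 5 is not of repressors alone. L3mbtl2 of the MGA complex was the fifth, with 0.26 (limma adjusted p = 0.014). The other genes of the list, among them Mga and E2f6, did not pass the limma test. EdgeR called 7 of the 27 higher, with Mga among them (adjusted p = 0.020), beside 8.12% of all genes it tested. The 2 that edgeR called lower were Dnmt1 (adjusted p = 0.030) and Ehmt2 (adjusted p = 0.044), beside 7.63% of all genes it tested.

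Retinoic acid genes moved in both directions, 4 higher, 5 lower and 8 not passed of 17 measured, with a median log2 fold change of -0.14. Crabp1, a retinoic acid carrier, rose by 2.62 from 11.3 and 11.2 CPM to 79.3 and 70.3 CPM (limma adjusted p = 1.6e-06), close in size to Stra8. Cyp26a1, which breaks retinoic acid down, rose by 1.40 from 1.08 and 1.56 CPM to 4.97 and 5.25 CPM (limma adjusted p = 0.0023). The carrier Crabp2 rose by 1.16 and the receptor Rarg by 0.39. The receptor Rarb, itself a target of retinoic acid, fell by 1.26 from 5.58 and 4.99 CPM to 2.27 and 1.11 CPM (limma adjusted p = 0.0092). The receptor Rxrg fell by 1.16, the retinal reductase Dhrs3 by 0.51 and the receptor Rxra by 0.38. The known targets Stra8, Cyp26a1, Rarb and Dhrs3 thus did not share a direction.

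**Figure D4:**
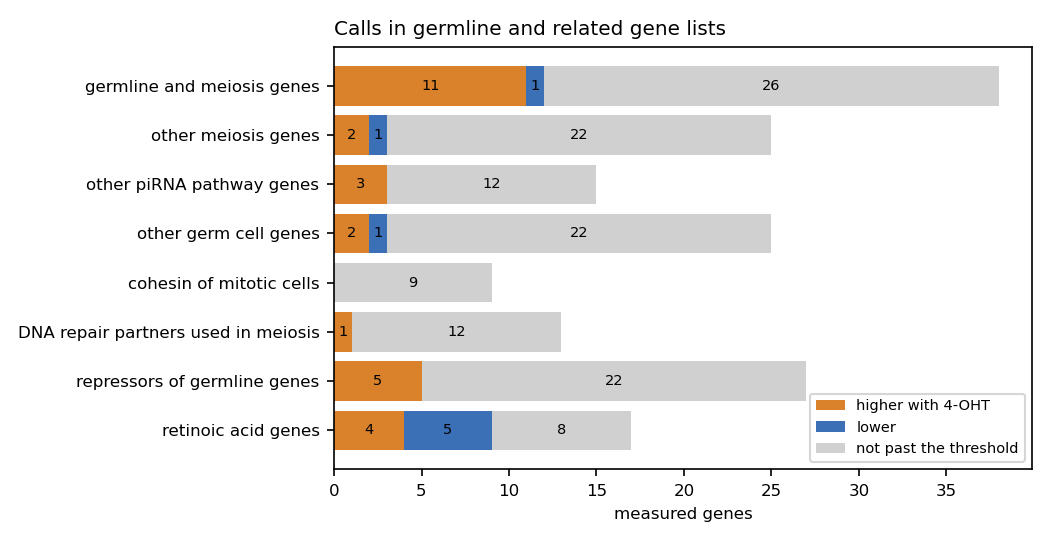
Number of measured genes (x axis) that rose, fell or did not pass the threshold (limma, adjusted p under 0.05) among the 38 germline and meiosis genes and 7 related lists. Bars add up to the genes measured, and 11 of the 38 germline genes rose beside 2 of the 25 other meiosis genes.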

How the data were processed

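PolyA RNA of 4 mouse ESC samples was sequenced, 2 with ethanol and 2 with 4-OHT. Per the submitters' processing notes, the tools were FastQC, Trimmomatic, HISAT2 and edgeR and the build was mm10, without versions. How reads were counted, with which annotation and whether by strand, is not given in the sources used here. Per the file headers, the authors deposited mean CPM per group, a log2 fold change and an adjusted p-value for 14382 genes. The deposited log2 fold change and p-value were not used, since they do not line up with the gene names: the deposited p-value fell in 0 of 14381 steps down the gene numbers in text order, and the deposited fold change had a Spearman rho of 0.018 with the CPM ratio across genes.

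Mean CPM is the mean of 2 products, the whole reads of each library times the CPM of 1 read there (0.142 to 0.159). Both read numbers were sought for each gene, and 100% of the values of each group came out whole to the printed digits. Of 3000 shifted values, drawn from those between 1 and 20 CPM, 0 did. More than 1 pair fitted 46 ethanol values and 7 4-OHT values. Of these, 40 and 7 were settled by keeping the only pair whose libraries lay within a factor of 2, which presumes a small spread. The 6 genes with several possible pairs left were omitted and 14376 were tested. The columns carry no replicate numbers. The design foresaw counts or CPM, and the branch for CPM was used. The test was limma-trend 3.58.1 (R 4.3.3) on log2(CPM + 1), two-sided, with Benjamini-Hochberg adjustment over the 14376 genes. The threshold was 0.05, and no filter on low values was applied. The alternatives were edgeR 4.0.16 (quasi-likelihood, filterByExpr) and DESeq2 1.42.0 on the recovered reads, DESeq2 size factors, a pseudocount of 0.1, a minimum mean log2 level of 1, and each library left out. The limma and edgeR steps were tested on simulated data. Counting intervals (95%) are given for genes with under 20 reads in a group, and hold counting error alone, as the reads carry no molecular identifiers and are not independent molecules.

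The genes followed, their roles and the related lists were chosen with earlier results of these data known. All genes followed are named. Of each related list, the called genes were named, at most the 4 largest in each direction, and others only where a count of 5 or fewer or a second tool singled them out, after their values were seen. The values of 1 called gene of the related lists are not reported here. Positions are from Gencode (mm10, 1-based), promoters from RefSeq (GRCm38.p6). Exon windows shared with other genes were counted over Gencode transcripts.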

Additional observations from a re-analysis of the deposited data

How the results depend on the processing

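Across the 13 alternatives, each of the 14 germline genes with values under them kept its direction. The germline genes called, 12 in limma, ranged from 9 (DESeq2) to 14 (edgeR, or a minimum level) with all libraries, and from 0 to 11 with 1 library left out. By edgeR the leave-out counts ran from 11 to 14. The related lists, with 23 genes called, had 36 with a minimum level, 36 by edgeR, 15 by DESeq2 and 0 to 21 with a library left out, or 21 to 28 of 36 by edgeR. All genes called, 1360 in limma, were 2042 by edgeR, 2032 with a minimum level, 700 by DESeq2, and 0 to 1031 with a library left out, or 1303 to 1782 by edgeR. The 0 calls came in limma without either 4-OHT library, when 2505 and 2514 genes had an unadjusted p under 0.05. A group of 1 library was assumed to vary like the other group. The cause was not tested. No paired analysis was possible because the columns carry no replicate numbers. Depth limits the 9 germline genes with under 20 reads in a group.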
